A study of Mus musculus with 8 samples.

Results

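The plate2 wells described here held single bone marrow progenitor cells of Mof -/+ mice, and they were set against wells of haematopoietic stem cells (HSC) of the same genotype. Both groups carry the same mutation, so the comparison asks how wells of the plate2 set and HSC wells that have lost 1 copy of Mof differ from each other, not what the loss of a copy does. The gene Mof, now named Kat8, makes an enzyme that acetylates lysines of histones. RNA was counted by CEL-Seq2, which marks wells by barcode and single molecules by an identifier, and the deposited values are estimated transcripts per gene and well. The groups used were Mof -/+ plate2 (libraries 15 and 16) and Mof -/+ HSC (libraries 1 and 2), with wild type plate2 (libraries 13 and 14) and wild type HSC (libraries 1 and 2) in the same fit. Per the design text, HSC were Kit+ Sca1+ lineage-negative cells without CD34, Flt3 and CD48 and with CD150, and 7 further gates took megakaryocyte-erythroid, erythroid, granulocyte-monocyte and megakaryocyte progenitors. The gate of a given plate2 well is not labelled, and neither are the age or number of the mice or how the Mof allele was made.

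A barcode range of 96 wells belonged to each library, taken as whichever range of its file had the larger total. Wells of that own range were kept when they held at least 1000 transcripts apart from spike-ins, and each was thinned at random to 1000 transcripts. This kept 91 plate2 wells (45 and 46) and 135 HSC wells (68 and 67), which are 226 of the 384 own-range wells of the 4 libraries. The whole series held 417 kept wells of 768, and 1536 barcodes.

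Stem cells at the top of blood formation divide rarely and keep a set of surface proteins and transcription factors that is lost as cells commit. Their descendants split into a granulocyte and monocyte path, which fills primary granules with proteases and myeloperoxidase, and a megakaryocyte and erythroid path, which switches on carbonic anhydrase, water channels and later haemoglobin. Progenitors on both paths grow and divide faster, and so make more ribosomes, chaperones and replication proteins.

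The plate sets differed in depth and in spike-in as well as in cell type. Median transcripts per kept well were 10015 and 12531 in the plate2 libraries, against 2923 and 2979 in the HSC libraries, and median spike-in transcripts per kept well were 19.01 and 10.5 against 232 and 304. Thinned wells held a median of 623 and 617.5 genes in plate2 and of 643 and 629 in HSC, and mitochondrial genes took 14.5% and 16.3% in plate2 and 14.5% and 14.2% in HSC. Plate set, depth and spike-in move with the cell group and cannot be told apart from it. No kept barcode was shared within a group, while 29 were shared by plate2 library 15 and HSC library 1 and 32 by plate2 library 16 and HSC library 2. Between the 2 libraries of a group, chi-square per degree of freedom over genes with at least 20 transcripts before thinning was 2.23 in plate2 (7372 genes) and 3.38 in HSC (4099 genes). Counting error alone gives 1, and each library was counted once. The value grows with depth, so it does not compare the groups and is not the spread of the thinned sums tested below. The labels do not say whether separate animals stand behind the libraries, so each p-value reflects only how far these libraries spread, and that spread may be technical.

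Kat8 itself (chromosome 7, 127912516 to 127925837, plus strand, GRCm38) was almost never caught. After thinning, the plate2 libraries held 0 and 1 Kat8 transcripts and the HSC libraries 0 and 0. All transcripts of the kept wells gave 9 and 12 in plate2 and 1 and 2 in HSC, which is 16.1 against 6.76 CPM (counts scaled to the library total) and a ratio of 2.38 with an exact 95% counting interval from 0.711 to 12.5. Since both groups have the same genotype, Kat8 does not check the labels here.

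The sort left its mark on the gate genes, which are given as a check and not as a result. Ly6a, which encodes Sca1, stood at 17.6 and 25.1 CPM of all transcripts in plate2 and at 352 and 580 CPM in HSC. Cd48 stood at 35.1 and 35.4 CPM in plate2 and had 0 transcripts in both HSC libraries, where the gate took cells without the protein. Transcripts of 2 other proteins that the HSC gate excludes were still present there. Cd34 had 44.7 and 91.5 CPM in plate2 against 119 and 285 in HSC, and Flt3 had 12.8 and 20.7 against 53.3 and 125. Slamf1, which encodes CD150, had 17.6 and 11.8 CPM in plate2 and 36.9 and 65.03 in HSC, and Kit had 308 and 221 against 213 and 520. Transcripts of Eng, Itga2b and Cd44 ran from 44.7 to 207 CPM in plate2 and from 81.9 to 280 in HSC. Tfrc stood at 70.2 and 82.6 CPM in plate2 against 180 and 25.01 in HSC, Fcgr3 at 43.1 and 25.1 against 16.4 and 0, and Fcgr2b at 20.7 and 20.7 against 0 and 30.01. Il7r had 1 transcript in plate2 library 15 and none in the other 3 libraries.

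Progenitors and stem cells differed across a wide set of genes. Thinned wells were summed per library and tested with edgeR's quasi-likelihood test, from which all adjusted p-values here come, and genes were called at a Benjamini-Hochberg adjusted p under 0.05. Of 952 genes tested, 140 were higher in plate2 (14.7%) and 106 were lower (11.1%), with a median log2 fold change of -0.12 over all tested genes. Predicted models named Gm and a number made up 41 of the higher and 2 of the lower genes, and pseudogenes and clone-named models made up 11 more of the higher ones. Thinning is itself a draw: 5 other draws called between 204 and 221 genes, and 102 of the 246 genes called here (71 higher and 31 lower) were called in all 5. With every transcript of the kept wells, 6678 genes could be tested, 746 were higher (11.2%) and 715 lower (10.7%), and 222 of the 246 were called in the same direction. Such sums weight each well by its depth, so all values with all transcripts given below lean towards the deeper wells of a library. The counts rest on few libraries. With the barcode range of a library as a block, an alternative chosen after the data were seen, 106 were higher and 68 lower, and of the genes named below Hba-a1, Camp, Ngp, Mki67, Smc4, Npm1, Eif3c, Eef1a1, Msl1, H1f0, Ctsb, Lamp1, Atp5l and Cox6a1 lost their call, with adjusted p-values between 0.0509 and 0.0846. Higher genes numbered 89 without plate2 library 15, 88 without plate2 library 16 and 58 without HSC library 1, and lower genes 59, 37 and 50, with 52 lower without HSC library 2.

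**Figure D1:**
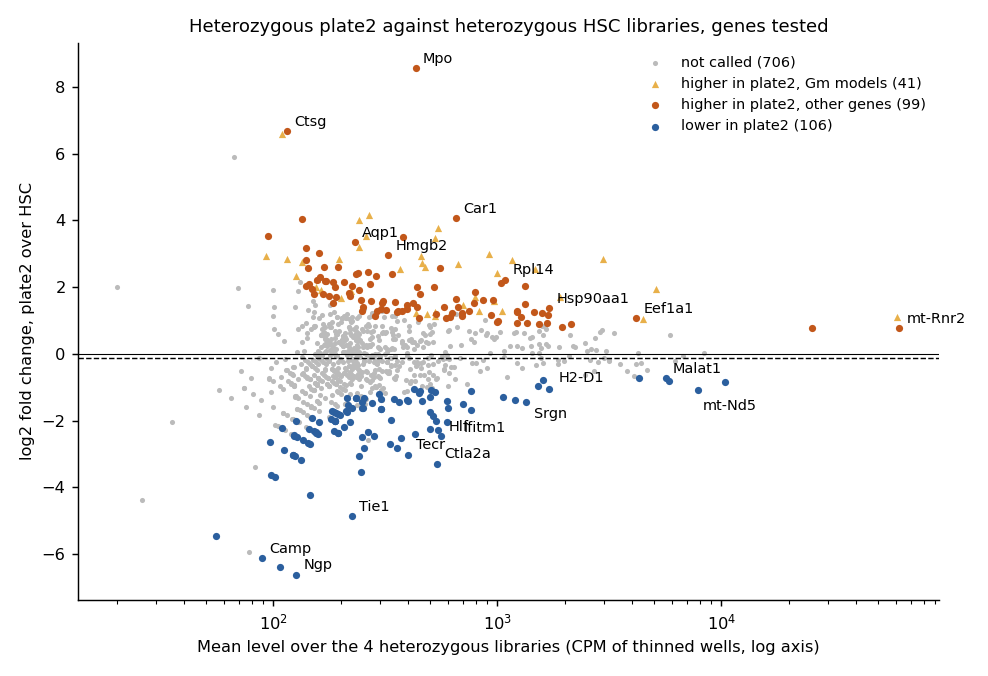
Each point is 1 of the 952 genes tested, with its mean level over the 4 heterozygous libraries in CPM of thinned wells (log axis) against its log2 fold change of heterozygous plate2 over heterozygous HSC; the dashed line is the median of all genes, -0.12. Mpo at 8.56, a fitted value that depends on the prior count since HSC had 0 transcripts, stands above all other called genes, Gm models (triangles) lie among the higher genes, and stem cell genes such as Ctla2a, Hlf and Tie1 lie among the lower ones.

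The widest gap came from 1 gene of the granulocyte path. Mpo, the myeloperoxidase of primary granules (chromosome 11, 87793581 to 87804413, plus strand), had 30 and 49 thinned transcripts in the plate2 libraries (667 and 1065 CPM) and 0 in both HSC libraries. That is at least 39.1-fold higher in plate2, against a floor of 3 transcripts over the 135 HSC wells, and the adjusted p was 0.000642. All transcripts of the kept wells gave 1001 and 768 for Mpo in plate2 and 0 and 1 in HSC. In each plate2 library 1 well held many of them, 455 of the 1001 and 240 of the 768. Ctsg, the granule protease cathepsin G (chromosome 14, 56099881 to 56102574, minus strand), had 11 and 10 thinned transcripts in plate2 and 0 in HSC, at least 10.4-fold higher (adjusted p = 0.00936), and was called in 1 of 5 other draws. Over all transcripts it had 322 and 180 in plate2 and 0 and 0 in HSC, with 174 of the 322 and 49 of the 180 in 1 well each. Both HSC libraries thus lay at or near 0 for these genes.

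The neutrophil primary granule list had 6 tested members, of which 4 were higher and 1 lower, with a median log2 fold change of 1.95, which is the same with Mpo and Ctsg at their bounds. Its summed level after thinning differed less, at 3156 and 3109 CPM in plate2 and 2412 and 2836 in HSC. Prtn3, proteinase 3, had 533 and 457 CPM in plate2 and 265 and 194 in HSC (log2 fold change 1.28 ± 0.44 SE, adjusted p = 0.0427), in 0 of 5 other draws. Plac8, a gene of early myeloid cells, had 356 and 304 CPM in plate2 against 29.4 and 89.6 in HSC (2.61 ± 0.67, adjusted p = 0.0129), and 8 of its 16 transcripts in plate2 library 15 came from 1 well. Srgn went the other way. It encodes serglycin, the proteoglycan core that packs granule proteins, and had 756 and 565 CPM in plate2 and 1897 and 2179 in HSC (-1.44 ± 0.31, adjusted p = 0.00485). Elane, neutrophil elastase, was too sparse to test after thinning. Over all transcripts it had 454 and 162 in plate2 and 0 and 0 in HSC, at least 69.9-fold higher by the floor of 3 (adjusted p = 0.000837), but 1 well held 274 of the 454. Ms4a3 had 53 and 24 in plate2 and 0 and 0 in HSC, at least 8.74-fold higher (adjusted p = 0.00961), with 39 of the 53 in 1 well. With all transcripts, 8 of 11 list members were higher and 2 lower.

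Early erythroid genes were the second group to mark plate2 wells. Car1, carbonic anhydrase 1 (chromosome 3, 14766216 to 14808368, minus strand), had 1156 and 1304 CPM in plate2 and 162 and 0 in HSC, a log2 fold change of 4.06 ± 0.62 (adjusted p = 0.00038). Over all transcripts the HSC libraries were far apart, with 1111 and 1131 Car1 transcripts in plate2 and 118 and 5 in HSC. Without HSC library 1 the Car1 log2 fold change stood at 8.997, and with all transcripts at 2.90. Aqp1, the red cell water channel, had 422 and 413 CPM in plate2 against 58.8 and 29.9 in HSC (3.34 ± 0.56, adjusted p = 0.000649). With all transcripts Aqp1 had 428 and 434 CPM in plate2 and 242 and 30.01 in HSC (1.78 ± 0.45, adjusted p = 0.00796). Ldb1, which bridges GATA1 and TAL1 on DNA, had 111 and 239 CPM in plate2 and 0 and 29.9 in HSC (adjusted p = 0.0266), in 1 of 5 other draws. Its all-transcript levels were 211 and 202 CPM in plate2 and 4.10 and 65.03 in HSC (2.84 ± 0.50, adjusted p = 0.000622).

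Not every erythroid gene moved this way. Of 8 tested members 3 were higher and 1 lower, with a median of 0.24 that turned negative in 4 alternatives (lowest -0.57). Nfe2, a transcription factor of the erythroid and megakaryocyte path, was lower, at 88.9 and 109 CPM in plate2 against 235 and 463 in HSC (-1.61 ± 0.52, adjusted p = 0.0358), in 2 of 5 other draws. With all transcripts 8 of 28 members were higher and 1 lower. Epor, the erythropoietin receptor gene, had 39.9 and 56.1 CPM in plate2 and 4.10 and 25.01 in HSC (1.96 ± 0.66, adjusted p = 0.0395). Gata1 and Klf1, the erythroid master regulators, did not pass. Klf1 had 90.96 and 112 CPM in plate2 and 86.03 and 5.002 in HSC, and Gata1 had 123 and 112 in plate2 and 115 and 25.01 in HSC. The 2 HSC libraries differed more for both than the plate2 libraries did.

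HSC library 1 held a few wells that looked unlike its others. Its 4 deepest wells, with between 9364 and 19921 transcripts, carried 111 of its 118 Car1 transcripts. They also held 7, 3, 5 and 1 Klf1 transcripts, and 27, 15, 5 and 5 of the library's 59 Aqp1 transcripts. Each had between 0 and 1 Hlf and between 0 and 4 Ctla2a transcripts. The 4 deepest wells of HSC library 2, with between 4789 and 7009 transcripts, had 0 Car1, 0 Aqp1 and 0 Klf1. These wells stayed in the groups as labelled.

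Few late erythroid, haem synthesis, iron handling and megakaryocyte genes were called. The megakaryocyte list still summed lower in plate2, at 267 and 326 CPM against 706 and 701 in HSC. With all transcripts its sums were 402 and 463 CPM in plate2 and 901 and 815 in HSC. Of its 7 members tested that way 6 had a negative log2 fold change and 1 a positive one, with a median of -0.68. No late erythroid, haem synthesis or megakaryocyte gene passed the filter on low counts after thinning. With all transcripts 0 of 7 late erythroid genes were higher and 1 lower, 1 of 7 haem synthesis genes was higher, and 0 of 7 megakaryocyte genes were higher and 2 lower. The 2 were Gng11 and Pf4, platelet factor 4, which had 89.4 and 66.4 CPM in plate2 and 266 and 115 in HSC (-1.15 ± 0.40, adjusted p = 0.0445), with 53 of its 56 transcripts in plate2 library 15 in 1 well. None of 13 iron handling genes passed, and ferritin heavy chain, Fth1, stood at 422 and 804 CPM in plate2 and 941 and 567 in HSC, with overlapping groups.

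**Figure D2:**
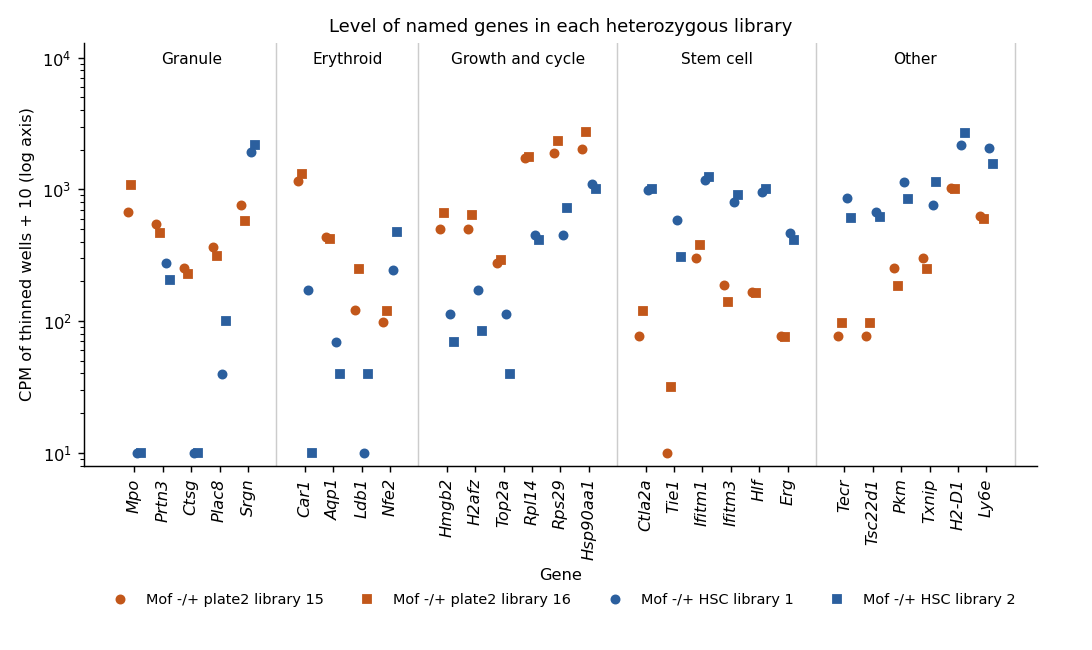
Level of named genes in each heterozygous library, as CPM of thinned wells plus 10 on a log axis, with plate2 libraries 15 and 16 in orange and HSC libraries 1 and 2 in blue. Granule, erythroid and growth genes lie higher in both plate2 libraries apart from Srgn and Nfe2, and the stem cell genes lie lower in both; points at 10 are listed at 0.

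By limits on chosen genes, granule, erythroid and stem cell markers stood out in different plate2 wells. Wells were counted with 3 or more thinned transcripts of 5 granule protein genes (Mpo, Elane, Prtn3, Ctsg and Ms4a3), with 3 or more of Car1 and Aqp1, or with 6 or more of the 2 stem cell lists, limits that were set after the values were seen. Granule wells made up 10 of 91 in plate2 (10.99%, exact Clopper-Pearson 95% interval 5.40% to 19.3%) and 1 of 135 in HSC (0.741%, 0.0188% to 4.06%). Car1 and Aqp1 wells made up 24 in plate2 (26.4%, 17.7% to 36.7%) and 1 in HSC (0.741%). Stem cell list wells made up 20 in plate2 (21.98%, 13.97% to 31.9%) and 122 in HSC (90.4%, 84.1% to 94.8%). No plate2 well met more than 1 of the 3 limits, which allows a share of up to 3.97% for each pair by the same exact interval, and 37 plate2 wells met none. The whole lists were less separate. Early erythroid list transcripts were seen in 37 of 45 and 43 of 46 plate2 wells, and primary granule list transcripts in 31 and 32. In plate2 library 16, 1 well held 7 early erythroid and 10 stem cell list transcripts. The 1 granule well of HSC also met the stem cell limit. In plate2, 153 of the 169 granule protein transcripts came from the 10 granule wells. The intervals cover counting error only, and wells of 1 library are not replicates.

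Barcode position within a plate2 library went with the markers. Barcodes with remainder 1 on division by 8 held 91 of the 142 primary granule list transcripts of library 15, in 6 wells, and 96 of 143 in library 16, in 7 wells. Barcodes with remainder 4 gave the most early erythroid transcripts, 83 of 215 in library 15 and 78 of 255 in library 16. Remainders 6 and 7 together held 60 of 78 stem cell surface transcripts in library 15 (29 and 31) and 50 of 79 in library 16 (28 and 22). In the HSC libraries no such position stood out for stem cell surface genes, whose share per remainder ran from 6.50% to 18.8%. Depth within plate2 also differed by position. Median transcripts per kept well in libraries 15 and 16 were 24022 and 22687 at remainder 1 and 29531 and 18377 at remainder 4. At remainder 6 they were 6912 and 10643, and at remainder 7 they were 9664 and 8157. Values with all transcripts thus weight wells at remainders 1 and 4 more than those at 6 and 7. No label ties a position to a gate, and the positions were compared after their values were seen.

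**Figure D3:**
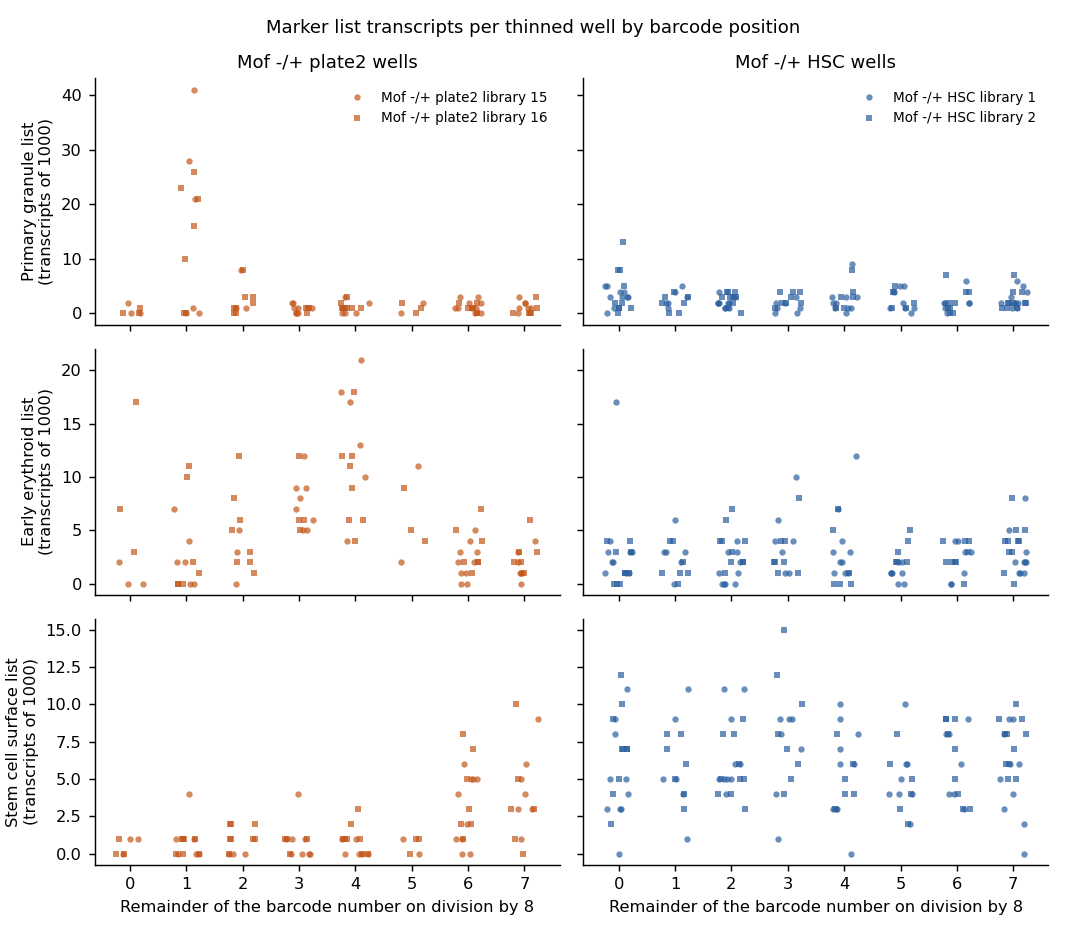
Each point is 1 thinned well, with its transcripts of the primary granule, early erythroid and stem cell surface lists (of 1000) against the remainder of its barcode number on division by 8; plate2 wells are on the left and HSC wells on the right. Granule transcripts reach 41 at remainder 1 in plate2, stem cell surface transcripts reach 8 and 10 there at remainders 6 and 7, and HSC wells carry stem cell surface transcripts at every remainder.

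Genes of stem cell identity were lower in plate2. Of 9 tested surface and secreted genes 6 were lower and 0 higher, with a median of -1.61. Tie1, an endothelial and stem cell receptor tyrosine kinase (chromosome 4, 118471191 to 118490061, minus strand), had 0 and 21.7 CPM in plate2 and 574 and 299 in HSC (adjusted p = 0.00201). Its thinned count over plate2 was 1, and over all transcripts Tie1 had 13 and 10 in plate2 and 102 and 69 in HSC (-4.24 ± 0.39, adjusted p = 9.92e-07). Ctla2a, a cysteine protease inhibitor gene (chromosome 13, 60934155 to 60936625, minus strand), had 66.7 and 109 CPM in plate2 and 985 and 1000 in HSC (-3.28 ± 0.46, adjusted p = 0.000249). A Ctla2a transcript was caught in 7 of 91 thinned plate2 wells (7.69%, 3.15% to 15.2%) and in 76 of 135 HSC wells (56.3%, 47.5% to 64.8%). Both HSC libraries lay well above both plate2 libraries for each of these genes.

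Membrane proteins of the interferon-induced family moved with them. Ifitm3 had 178 and 130 CPM in plate2 and 794 and 896 in HSC (-2.25 ± 0.40, adjusted p = 0.0011), and Ifitm1 had 289 and 370 against 1162 and 1239 (-1.68 ± 0.36, adjusted p = 0.00457). Over all transcripts Procr, which encodes the stem cell surface protein EPCR, had 9.58 and 14.7 CPM in plate2 and 36.9 and 75.03 in HSC (-1.97 ± 0.58, adjusted p = 0.0196). With all transcripts 11 of 14 surface genes were lower and 0 higher. Of 2 tested members of the list of cytokine receptors outside the gates 1 was lower and 0 higher, and with all transcripts 3 of 16 were higher and 4 lower.

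Stem cell transcription factors had 10 tested members, of which 3 were lower and 0 higher, with a median of -1.44. Hlf, a factor largely confined to stem cells in blood (chromosome 11, 90336536 to 90390895, minus strand), had 156 and 152 CPM in plate2 and 941 and 1000 in HSC (-2.46 ± 0.39, adjusted p = 0.000419). Erg, an ETS factor of stem cell maintenance, had 66.7 and 65.2 CPM in plate2 and 456 and 403 in HSC (-2.48 ± 0.55, adjusted p = 0.00537), in 3 of 5 other draws. More depth brought more of the list past the test: with all transcripts 9 of 18 were lower and 0 higher. Mecom, a zinc finger factor needed by HSC, had 27.1 and 23.6 CPM in plate2 against 188 and 240 in HSC (-2.89 ± 0.38, adjusted p = 4.84e-05). Meis1 stood at 55.9 and 57.5 CPM in plate2 and 213 and 310 in HSC, and Hoxa9 at 55.9 and 32.5 against 180 and 215. Gata2, expressed along both paths, did not pass, at 177 and 156 CPM in plate2 and 258 and 260 in HSC.

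Genes outside the marker lists also marked HSC wells. Tecr, an enzyme of very long chain fatty acid synthesis, had 66.7 and 86.96 CPM in plate2 and 853 and 597 in HSC (-3.02 ± 0.48, adjusted p = 0.000419). Its fall was smaller with all transcripts, at 188 and 183 CPM in plate2 and 885 and 605 in HSC (-1.84 ± 0.31, adjusted p = 0.000432). Tsc22d1, a transcriptional regulator first found as induced by TGF-beta, had 66.7 and 86.96 CPM in plate2 and 662 and 612 in HSC (-2.83 ± 0.45, adjusted p = 0.000419). Fmnl1, an actin-nucleating formin, stood at -2.81 ± 0.60, Tmem176b at -2.50 ± 0.62, the calmodulin-binding gene Nrgn at -2.45 ± 0.59 and Shisa5 at -2.41 ± 0.44. Bin2 stood at -2.34 ± 0.47 and Capns1, the small subunit of calpain, at -2.28 ± 0.40. Adjusted p-values of these 6 genes ran from 0.00098 for Capns1 to 0.0102 for Tmem176b, and in each the plate2 libraries lay below both HSC libraries.

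Genes that hold back growth and division pointed the same way. Of 3 tested members of the list of cell cycle brakes and D cyclins 2 were lower and 0 higher, with a median of -1.33. Txnip, an inhibitor of thioredoxin and of glucose uptake, had 289 and 239 CPM in plate2 and 750 and 1119 in HSC (-1.63 ± 0.38, adjusted p = 0.00677). With all transcripts 5 of 10 members were lower and 0 higher, among them Cdkn1c, which encodes the inhibitor p57, with 14.4 and 17.7 CPM in plate2 and 45.1 and 80.03 in HSC (-1.75 ± 0.55, adjusted p = 0.0276).

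Of 8 tested histone variant and high mobility group genes 2 were higher and 1 lower, with a median of 0.74. Hmgb2, a high mobility group protein (chromosome 8, 57511907 to 57515999, plus strand), had 489 and 652 CPM in plate2 and 103 and 59.7 in HSC (2.95 ± 0.46, adjusted p = 0.000419). H2afz, which encodes the histone variant H2A.Z, had 489 and 630 CPM in plate2 and 162 and 74.6 in HSC (2.40 ± 0.46, adjusted p = 0.00172). The linker histone gene H1f0, known to accumulate in resting cells, was lower, at 133 and 130 CPM in plate2 and 397 and 358 in HSC (-1.32 ± 0.44, adjusted p = 0.0401), in 1 of 5 other draws. With all transcripts 6 of 17 list members were higher and 2 lower, H1f0 and Hmga2.

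Among G2 and mitosis genes 4 of 7 tested members were higher and 0 lower, with a median of 1.13. Smc2, a condensin subunit, had 156 and 348 CPM in plate2 against 44.1 and 14.9 in HSC (3.16 ± 0.76, adjusted p = 0.00876). Top2a, topoisomerase II, had 267 and 283 CPM in plate2 against 103 and 29.9 in HSC (2.18 ± 0.58, adjusted p = 0.0148). Mki67, the antigen Ki-67, stood at 1.72 ± 0.59 (adjusted p = 0.0415) and Smc4 at 1.13 ± 0.40 (adjusted p = 0.0457), each in 2 of 5 other draws, and Mki67 did not pass with all transcripts (0.60, adjusted p = 0.345). HSC library 1 lay above HSC library 2 for Smc2, Top2a and Mki67. Of 3 tested DNA replication and S phase genes, the DNA ligase gene Lig1 was higher (2.09 ± 0.65, adjusted p = 0.0304, in 1 of 5 other draws) and 0 were lower, with a median of 0.66. Lig1 did not pass with all transcripts (1.03, adjusted p = 0.0535). With all transcripts 15 of 43 were higher and 0 lower, among them the replication clamp Pcna at 169 and 214 CPM in plate2 and 81.9 and 30.01 in HSC (1.89 ± 0.40, adjusted p = 0.00252). The S phase list summed to 2844 and 4522 CPM in thinned plate2 wells and 2485 and 1284 in HSC. With all transcripts its sums were 4037 and 5560 CPM in plate2 and 3785 and 1616 in HSC. Those of the G2 and mitosis list were 4724 and 5445 CPM against 4670 and 1896. In each, HSC library 1 lay nearer to plate2 library 15 than to HSC library 2. Thinned wells with 8 or more G2 and mitosis transcripts numbered 4 of 45 and 9 of 46 in plate2, and 5 of 68 and 1 of 67 in HSC. Plate2 library 15 and HSC library 1 were thus close in this share. However, the 5 wells of HSC library 1 included its 4 deepest, described above as unlike its others. Those 4 held 15, 8, 13 and 20 G2 and mitosis transcripts.

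Many ribosomal protein genes were higher in plate2. Of 69 tested cytosolic ribosomal protein genes 25 were higher and 2 lower, with a median of 0.63 that ran from 0.42 to 0.75 over all alternatives. Rpl36 had 444 and 435 CPM in plate2 and 73.5 and 104 in HSC (2.46 ± 0.44, adjusted p = 0.0011). Rpl14 had 1733 and 1761 CPM in plate2 and 441 and 403 in HSC (2.23 ± 0.35, adjusted p = 0.000419), Rplp0 stood at 2.12 ± 0.38, Rpl36al at 2.10 ± 0.51 and Rps29 at 2.02 ± 0.38. The list's summed level was 115178 and 127761 CPM in plate2 and 114824 and 112522 in HSC, so these sums of plate2 library 15 and HSC library 1 lay close together. Library 15 included 8 wells of low complexity, described below, with between 4 and 45 transcripts of the list each. Medians per thinned well were 130 and 132 in plate2 and 114 and 110 in HSC. With all transcripts the sums were 136621 and 134926 CPM in plate2 and 115866 and 113120 in HSC. Pseudogenes and clone-named models were among the higher genes, and where these share sequence with a parent gene their reads cannot be placed with certainty. Rpl7a-ps5 stood at 3.51 ± 0.49 and Rpl21-ps4 at 2.43 ± 0.50, and the clone-named models RP23-341H2.4 and RP23-271M19.2 at 2.57 ± 0.42 and 2.17 ± 0.57. Adjusted p-values of these 4 were 0.000249, 0.00312, 0.000594 and 0.0151 in that order, and RP23-341H2.4 stood at 1.73 and RP23-271M19.2 at 1.81 without the wells of low complexity described below (adjusted p = 0.0185 and 0.0644).

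Other growth machinery was called higher at about the 14.7% of all tested genes. Among 19 translation factors 3 were higher and 0 lower, with a median of 0.40. Eif4a1, the helicase that unwinds messenger RNA for initiation, had 356 and 413 CPM in plate2 and 73.5 and 89.6 in HSC (2.38 ± 0.56, adjusted p = 0.00787). Eef1a1, the elongation factor that carries aminoacyl-tRNA, stood at 1.07 ± 0.37 (adjusted p = 0.0431), and Eif3c at 1.42 ± 0.47 (adjusted p = 0.0389), a value that turned negative in 3 of the 5 other draws. Eif3c did not pass with all transcripts (0.65, adjusted p = 0.122). Of 12 Myc and ribosome biogenesis genes 2 were higher and 0 lower, with a median of 0.81. They were Npm1, nucleophosmin, at 1333 and 2826 CPM in plate2 and 1294 and 1194 in HSC (0.91 ± 0.31, adjusted p = 0.0424) and the small nucleolar ribonucleoprotein Nop56 (1.34 ± 0.38, adjusted p = 0.0195, in 1 of 5 other draws). Myc, too sparse after thinning, had 153 and 165 CPM of all transcripts in plate2 and 16.4 and 20.01 in HSC (3.28 ± 0.42, adjusted p = 3.81e-05). With all transcripts 14 of 30 list members were higher and 0 lower.

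Folding chaperones had 18 tested members, 5 of them higher and 1, Ppia, lower, with a median of 0.74. Hsp90aa1, the inducible cytosolic HSP90, had 2022 and 2717 CPM in plate2 and 1088 and 1000 in HSC (1.36 ± 0.28, adjusted p = 0.00328). Hspd1, the mitochondrial chaperonin, stood at 1.57 ± 0.40 (adjusted p = 0.0119), the endoplasmic reticulum chaperone Hsp90b1 at 1.25 ± 0.39 (adjusted p = 0.03) and the lectin chaperone Canx at 1.29 ± 0.40 (adjusted p = 0.0301, in 0 of 5 other draws). Hspa8, the constitutive HSC70, had 667 and 696 CPM in plate2 and 191 and 254 in HSC (1.79 ± 0.56, adjusted p = 0.0304). In all 5 the plate2 libraries lay above both HSC libraries. Of 4 tested proteasome genes none was called, and with all transcripts 6 of 36 were higher and 0 lower. Psmb1 had 289 and 370 CPM in plate2 and 265 and 149 in HSC (0.84 ± 0.50), and Psma4 stood at 0.74 ± 0.63.

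**Figure D4:**
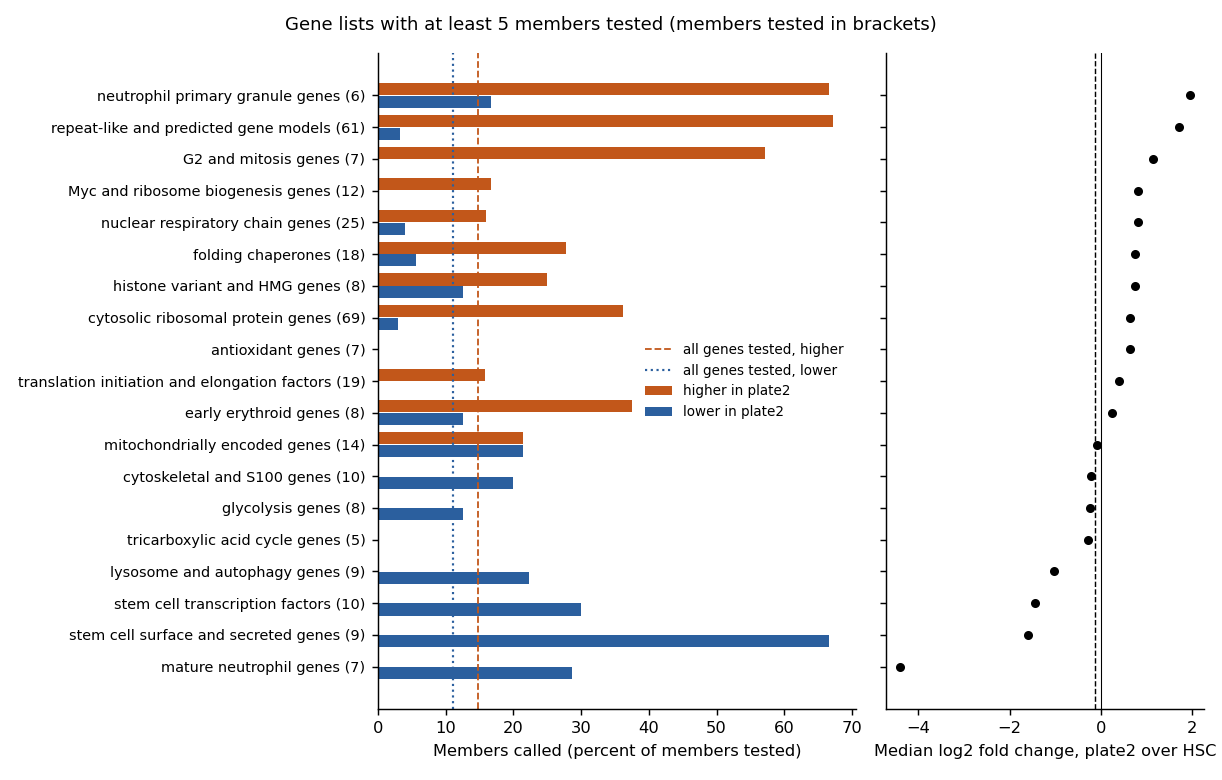
Left, the percent of tested members of each gene list called higher (orange) or lower (blue) in heterozygous plate2, with the 14.7% and 11.1% over all genes tested as dashed and dotted lines; right, each list's median log2 fold change, with that of all genes, -0.12, dashed. Granule, Gm model and mitosis lists lie at the higher end, and stem cell and mature neutrophil lists at the lower end, the neutrophil median resting on fitted values of genes at 0 in plate2; only lists with at least 5 tested members are drawn.

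Of 14 tested mitochondrially encoded genes 3 were higher and 3 lower, with a median of -0.08. Both ribosomal RNAs were higher: mt-Rnr2 had 70733 and 79217 CPM in plate2 and 49103 and 50493 in HSC (0.77 ± 0.18, adjusted p = 0.00618), and mt-Rnr1 stood at 0.76 ± 0.21 (adjusted p = 0.0159). The 3 lower genes were mt-Nd5 and mt-Nd4, of complex I, and mt-Cytb, of complex III. For mt-Nd5 the levels were 4089 and 5174 CPM in plate2 and 12559 and 9582 in HSC (-1.08 ± 0.23, adjusted p = 0.00406), mt-Nd4 stood at -0.84 ± 0.23 and mt-Cytb at -0.81 ± 0.21 (adjusted p = 0.0146). The short mt-Atp8, which overlaps mt-Atp6, was higher (2.35 ± 0.47, adjusted p = 0.00281), and stood at 1.54 without the wells of low complexity described below (adjusted p = 0.0454). With all transcripts mt-Nd6, another complex I gene, was higher, at 129 and 98.8 CPM in plate2 and 40.97 and 50.02 in HSC (1.49 ± 0.39, adjusted p = 0.00945). Of 25 tested nuclear respiratory chain genes 4 were higher and 1 lower, with a median of 0.81, and with all transcripts 20 of 74 were higher and 1 lower. Cox6c had 311 and 348 CPM in plate2 and 73.5 and 134 in HSC (1.82 ± 0.57, adjusted p = 0.0301), Atp5l stood at 1.79 ± 0.59 (adjusted p = 0.0368) and Cox6a1 at 1.27 ± 0.42 (adjusted p = 0.0389, in 1 of 5 other draws). Cox6a1 did not pass with all transcripts (0.80, adjusted p = 0.0554). Cox7a2l, a factor of respiratory supercomplexes, was lower, at 244 and 283 CPM in plate2 and 706 and 761 in HSC (-1.29 ± 0.39, adjusted p = 0.0281). No mitochondrial ribosomal protein gene could be tested after thinning, and 12 of 67 were higher and 0 lower with all transcripts.

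Few metabolic genes were called after thinning. Pkm, pyruvate kinase, was the 1 lower of 8 glycolysis genes, at 244 and 174 CPM in plate2 and 1132 and 836 in HSC (-2.04 ± 0.40, adjusted p = 0.0023), and none was higher, with a median of -0.25. No tricarboxylic acid cycle gene of 5 was called; Mdh2 stood at 0.44 ± 0.46 and Sdha at -0.48 ± 0.55. With all transcripts 5 of 20 of that list were higher and 0 lower. In the list of nucleotide and one-carbon synthesis genes 1 of 4 was higher, Atpif1 (1.57 ± 0.40, adjusted p = 0.012), which inhibits ATP synthase and makes no nucleotides, and the median was near 0. With all transcripts 7 of 20 were higher and 0 lower, among them Cad, Ctps and Gart. No antioxidant gene of 7 was called. Gpx1 had 1000 and 1000 CPM in plate2 and 735 and 657 in HSC (0.71 ± 0.33, adjusted p = 0.125), and Prdx5 stood at -1.70 ± 0.80.

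Some antigen presentation and interferon genes were lower in plate2. H2-D1, a class I heavy chain with close paralogs, had 1022 and 1000 CPM in plate2 and 2147 and 2657 in HSC (-1.06 ± 0.29, adjusted p = 0.0156), the 1 lower of 3 tested MHC genes, with 0 higher and a median of -1.06. Class II genes were caught with all transcripts, by which 7 of 12 MHC genes were lower and 1, H2-T23, higher. Cd74, the invariant chain, had 1.60 and 10.3 CPM in plate2 and 135 and 130 in HSC (-4.20 ± 0.61, adjusted p = 0.000106), and 13 of the 33 Cd74 transcripts of HSC library 1 came from 1 well. Of 3 interferon response genes 2 were lower and 0 higher, with a median of -1.38. Ly6e, a surface protein induced by interferon, had 622 and 587 CPM in plate2 and 2044 and 1552 in HSC (-1.38 ± 0.32, adjusted p = 0.0063), and the GTPase Gbp7 stood at -1.80 ± 0.54 (adjusted p = 0.026). With all transcripts 9 of 18 were lower and 1, Psmb8, higher. Gimap1, of the immune GTPases, did not pass after thinning (-0.90 ± 0.66), and all 3 Gimap genes tested with all transcripts were lower.

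Of 3 tested immediate early genes 1, Jun, was lower and 0 higher. Jun had 0 and 152 CPM in plate2 and 309 and 418 in HSC (-2.03 ± 0.66, adjusted p = 0.036, in 2 of 5 other draws), and the list median was -1.61. With all transcripts 9 of 13 were lower and 0 higher, among them Egr1 at 6.38 and 17.7 CPM in plate2 and 73.7 and 85.03 in HSC (-2.49 ± 0.52, adjusted p = 0.00224). Such genes also respond to handling during a sort, whose part was not tested. Lysosome and autophagy genes had 2 lower and 0 higher of 9, with a median of -1.03. Lamp1, a lysosomal membrane protein, had 111 and 196 CPM in plate2 and 485 and 418 in HSC (-1.36 ± 0.47, adjusted p = 0.0427), with -1.29 and adjusted p = 0.0547 without the low-complexity wells, and the protease Ctsb had 0 and 65.2 CPM in plate2 and 176 and 254 in HSC (adjusted p = 0.0427, in 2 of 5 other draws). Myl6, a myosin light chain, had 533 and 587 CPM in plate2 and 1912 and 1209 in HSC (-1.29 ± 0.32, adjusted p = 0.00942). With S100a6, listed at 0 in both thinned plate2 libraries against 9 and 6 transcripts in HSC and called in 0 of 5 other draws, it made 2 lower of 10 cytoskeletal and S100 genes, with 0 higher and a median of -0.23.

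The nuclear long noncoding RNAs Malat1 and Neat1 were lower. Malat1 had 4044 and 3783 CPM in plate2 and 7441 and 7343 in HSC (-0.73 ± 0.25, adjusted p = 0.041). Neat1, the scaffold of paraspeckles, had 88.9 and 43.5 CPM in plate2 and 309 and 388 in HSC (-2.18 ± 0.58, adjusted p = 0.0151), but was called in 0 of 5 other draws and reached -1.96 with all transcripts (adjusted p = 0.000943).

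Partners of Mof were mostly too sparse to compare. Of 2 tested members of the MOF complexes, Msl1, the scaffold of the MSL complex (chromosome 11, 98795516 to 98807859, plus strand), was lower, at 22.2 and 130 CPM in plate2 and 324 and 284 in HSC (-1.77 ± 0.59, adjusted p = 0.0391), in 3 of 5 other draws. With all transcripts 2 of 11 members were lower, Msl1 and Hcfc1, and 0 were higher. No other acetyltransferase or deacetylase gene of 2 tested was called after thinning. Crebbp had 88.9 and 43.5 CPM in plate2 and 206 and 179 in HSC (-1.33 ± 0.75), and Kat6a stood at -0.02 ± 0.50. With all transcripts 1 of 17 was lower, Kat6a (-0.88, adjusted p = 0.0424).

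Predicted Gm models carried much of the rise, and low-complexity wells carried part of that. Of 61 tested models 41 were higher and 2 lower, with a median of 1.71. Models took 19.3% and 11.9% of thinned transcripts in plate2 and 6.78% and 9.26% in HSC. Gm21833 (chromosome 16, 82828382 to 82829881, plus strand) had 6267 and 4000 CPM in plate2 and 868 and 761 in HSC (2.85 ± 0.35, adjusted p = 0.000249). Gm42519 stood at 3.47 ± 0.46, Gm21750 at 3.78 ± 0.51 and Gm37158 at 2.81 ± 0.39, each with an adjusted p of 0.000249. Without the low-complexity wells defined next, Gm21833 stood at 2.08, Gm42519 at 2.54, Gm21750 at 2.79 and Gm37158 at 1.69, all still called. Wells with under 400 genes among their 1000 transcripts numbered 8 of 45 and 2 of 46 in plate2, and 0 of 68 and 1 of 67 in HSC. In plate2 library 15, 7 of the 8 held 300 or more Gm model transcripts. Leaving these wells out, a limit set after the values were seen, left 29 Gm models higher, 127 genes higher and 100 lower of 917 tested, and 215 of the 246 called genes were called again.

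**Figure D5:**
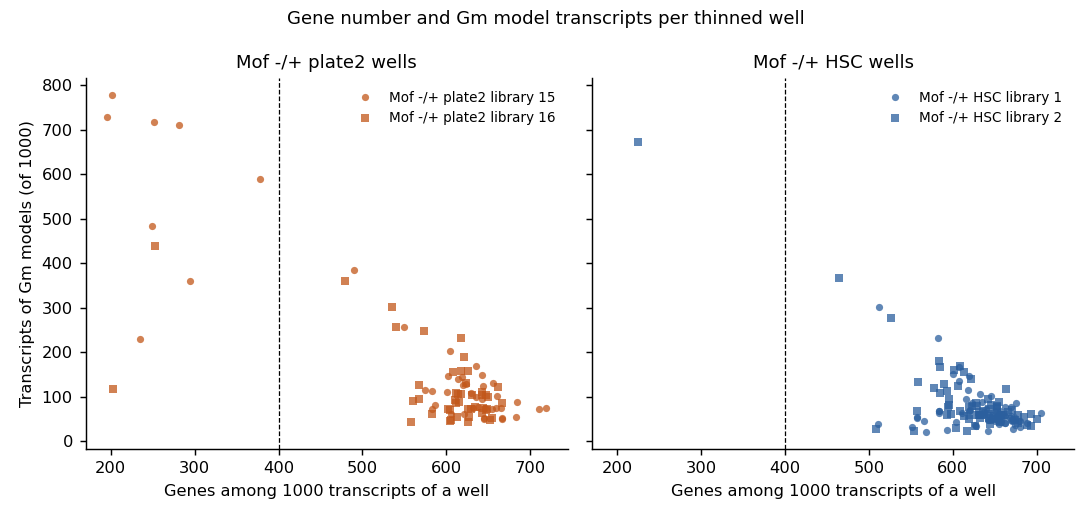
Each point is 1 thinned well, with the number of genes among its 1000 transcripts against its transcripts of predicted Gm models; heterozygous plate2 wells are on the left, HSC wells on the right and the dashed line marks 400 genes. In plate2 library 15, 8 wells lie left of the line, against 2 in library 16, 0 in HSC library 1 and 1 in HSC library 2.

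Mature neutrophil transcripts stood in few wells. Mature neutrophil genes summed to 267 and 130 CPM in plate2 and 706 and 2582 in HSC, and 1 well held 145 of the 173 list transcripts of HSC library 2 and 1 well 41 of the 48 of HSC library 1. Of 7 tested members 2 were lower and 0 higher. Both encode proteins of later granules: Ngp had 0 thinned transcripts in plate2 and 10 and 24 in HSC, from 2 wells of each HSC library, and Camp had 0 in plate2 and 9 and 15 in HSC, from 3 wells and 1 well. In each HSC library 1 well held most of them, 9 of the 10 and 23 of the 24 for Ngp and 7 of the 9 and 15 of the 15 for Camp. The floor of 3 transcripts gives 7.64-fold lower in plate2 for Ngp and 5.39-fold for Camp. It treats transcripts as independent, so with 1 well holding most of them these values are no bounds for the groups. Hba-a1, alpha globin, whose copy Hba-a2 is nearly identical, had 22.2 and 130 CPM in plate2 and 691 and 478 in HSC (-2.71 ± 0.96, adjusted p = 0.046), with 18 of 32 transcripts of HSC library 2 in 1 well and 11 of 47 of HSC library 1. A thinned Hba-a1 transcript was caught in 1 of 45 and 3 of 46 plate2 wells, and in 19 of 68 and 8 of 67 HSC wells. It was the 1 lower of 3 globin genes, and it stood at -2.83 without the low-complexity wells (adjusted p = 0.0559). Of myeloid transcription factor and monocyte genes 1 was tested and not called, Ly6c2 (adjusted p = 0.0507). Ly6c2 had 11 and 1 transcripts in plate2 and 0 in HSC. With all transcripts 5 of 10 of this list were higher and 1 lower, and Irf8, a monocyte factor, had 92.6 and 159 CPM in plate2 and 40.97 and 25.01 in HSC (2.07 ± 0.63, adjusted p = 0.0226). Lymphoid genes summed to 244 and 130 CPM in plate2 and 132 and 164 in HSC, mast cell, basophil and eosinophil genes to 44.4 and 0 against 0 and 119, and stromal and endothelial genes to 111 and 86.96 against 88.2 and 149. None of these 3 lists had a tested member after thinning, and with all transcripts 0 of 2 lymphoid and 0 of 2 stromal genes were called. The part of stray cells or free RNA in these counts was not tested.

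The same fit set the heterozygous difference beside the wild type one, from other libraries. Of the 246 genes called in heterozygotes 236 had the same sign in wild type (95.9%), as had 777 of all 952 tested (81.6%). A direct test of the difference of the 2 effects called 0 genes (0%) by edgeR, 0 by DESeq2 and 0 by limma-voom, and 75 genes had an unadjusted p under 0.05. The 5 smallest p-values, each with an adjusted p of 0.284, were those of Tmsb4x, S100a9, Camp, Gm26905 and B2m. Tmsb4x, an actin-binding thymosin, stood at -0.13 ± 0.39 in heterozygotes and 2.45 in wild type, and B2m, the light chain of class I molecules, at -0.29 ± 0.28 and 1.19. S100a9 stood at -2.58 ± 1.16 and 2.99, and 45 of its 52 thinned transcripts in heterozygous HSC library 2 came from 1 well. Camp had the 0 plate2 transcripts given above in heterozygotes and stood at 1.94 in wild type, and Gm26905 at 2.55 ± 0.48 and 5.93. Leaving out 1 library brought the count to between 0 and 18. Nothing described above was thus shown to be particular to the heterozygous cells.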

How the data were processed

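Single sorted bone marrow cells were counted by CEL-Seq2, per the labels' protocols. The authors deposited each gene and barcode as an estimated count of transcripts: from k identifiers seen, with k whole, 4096 x -ln(1 - k/4096) gives every deposited value (largest deviation 4.2e-11), so high values are extrapolated. The submitters' processing notes name BWA 0.6.2-r126 and mm10; for annotation, filters and counter, the sources used here give nothing. Values were rounded to whole numbers. Own-range wells with at least 1000 transcripts, without 70 spike-in rows, were thinned to 1000 (seed 1; doublets were not called, since cells were sorted into wells) and summed per library. The 8 libraries (4 groups of 2) were fitted in 1 layout with edgeR 4.0.16 in R 4.3.3 (TMM, filterByExpr, quasi-likelihood, two-sided, Benjamini-Hochberg, 4 residual degrees of freedom), tested on simulated data. With 2 against 2 libraries no exact permutation test falls below p = 0.333. Alternatives used DESeq2 1.42.0 and limma 3.58.1 (voom). Coordinates are from GENCODE vM21 (GRCm38), which held 19011 of 19879 gene names. Intervals cover counting error only.

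Named genes were Kat8, the 15 largest called changes each way with a mean of at least 200 CPM and libraries apart (no predicted models, no gate genes), up to 4 called members of each of 42 lists or 2 uncalled, and 5 of the genotype difference. Members of lists given beside them with all transcripts were chosen after their values were seen. The comparison, lists and genes were chosen with earlier results of these data known. Results for some genes are not reported here.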

Additional observations from a re-analysis of the deposited data

Results flagged for a closer look

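Transcripts were also counted on the barcodes of each file that belong to the other range, which the comparison does not use. That range held 3.41% of transcripts in plate2 library 15 and 2.29% in plate2 library 16, and 8.12% in HSC library 1 and 8.89% in HSC library 2. At least 1000 transcripts were reached by 3 such wells in plate2 library 15, 0 in plate2 library 16, 0 in HSC library 1 and 1 in HSC library 2. Mpo had 34 and 16 such transcripts in the plate2 libraries and 1 and 0 in the HSC libraries, and Ctla2a had 3 and 2 in plate2 and 50 and 31 in HSC. Over 96 wells, the other-range totals of plate2 libraries 15 and 16 had a Pearson r of 0.799 and 0.846 with the own wells of the other plate2 library on those barcodes, against 0.113 and -0.196 with the HSC library there. Those of HSC libraries 1 and 2 had 0.523 and 0.545 with the other HSC library, against 0.00633 and 0.152 with the plate2 library there. These describe wells of shared barcodes and are no test.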

How the results depend on the processing

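Counts of called genes moved with the settings, while directions mostly held. Against 140 genes higher and 106 lower, DESeq2 called 61 and 23, limma-voom 138 and 46, all transcripts 746 and 715, and no filter 71 higher. Scaling by library size alone gave 102 and 142, and relative log expression 147 and 80. Leaving out 1 library gave 58 to 194 higher and 37 to 151 lower. For the genotype difference, 0 genes were called, against 3 without a filter, 1, 3 and 1 in other draws, and 0 to 18 with 1 library left out (18 without wild type HSC library 1). Leaving out the mature neutrophil wells gave 143 and 123, and the globin and late erythroid wells 118 and 87, both chosen after seeing the data. The cause was not tested.

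Of 95 named genes with a fit 87 never changed sign, and 31 of the 81 called were called in every alternative. Fth1 reversed to 0.13 with all transcripts, 0.45, 0.049 and 0.079 in other draws, 0.29 without mitochondrial genes and Gm models, and ran from -0.54 to 0.29 with 1 library left out. Mdh2 reversed to -0.031 with all transcripts, -0.61, -0.18 and -0.43 in other draws, -0.44 at 2000 transcripts and -0.69 without mitochondrial genes and Gm models, where Sdha reversed to 0.15. In other draws Crebbp reversed to 0.20 and Eif3c to -0.51, -0.28 and -0.28. Kat6a reversed to 0.051 with relative log expression, 0.062 by DESeq2, 0.060 without each gene's highest well, 0.13 on whole identifiers and 0.026 without low-complexity wells, and ran from -0.40 to 0.38 with 1 library left out. Tmsb4x reversed to 0.021 without the globin wells. With 1 library left out it ran from -0.58 to 0.55 and B2m from -0.55 to 0.047. No paired analysis was possible because the plate2 libraries (15 and 16) and the HSC libraries (1 and 2) share no replicate number. A block on barcode range, chosen after seeing the data, gave 106 higher and 68 lower, and 17 named genes lost their call while none changed sign. Depth limits the thinned counts: lists of low genes could be compared only with all transcripts, where plate2 is deeper and deep wells weigh most.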
